A study of Mus musculus with 8 samples.

Results

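The proteasome is the chambered protease that degrades proteins marked with ubiquitin. The 34 genes described here encode its subunits, and they were taken from the count table by gene symbol. All 34 symbols were found among 32390 rows, none of them was repeated, and all 34 had enough counts to be among the 12725 rows tested. By their place in the particle, 7 genes encode the alpha rings of the 20S core (20S alpha), 7 its constitutive beta rings (20S beta), 3 the immunoproteasome beta subunits, 9 the base of the 19S regulatory particle and 8 its lid. RNA came from gastrocnemius muscle of 21-month-old male mice on chow. The control group was *Nox4* fl/fl (4 mice), and the NOX4-deficient group was MckCre:*Nox4* fl/fl (4 mice), so that both genotypes carried the floxed alleles of *Nox4*, which encodes a hydrogen peroxide-producing NADPH oxidase. The muscle creatine kinase promoter drives Cre in muscle fibers, and endothelial, immune and connective tissue cells in the same tissue keep intact alleles.

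In the assembled 26S proteasome, the 19S base holds a ring of ATPases that unfolds substrates, the lid and base bind and remove ubiquitin chains, and the outer alpha rings of the core control entry to the beta rings, which cut. *Psmb5*, *Psmb6* and *Psmb7* encode the catalytic beta subunits with chymotrypsin-like, caspase-like and trypsin-like activity. Under interferon their products are exchanged, in the same order, for those of *Psmb8*, *Psmb9* and *Psmb10*, which favor peptides for class I antigen presentation. In skeletal muscle, the ubiquitin-proteasome system degrades contractile proteins during atrophy, and the transcription factors NFE2L1 and NFE2L2, with small MAF partners, are known regulators of proteasome subunit genes.

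The libraries held between 16350548 and 19804661 counts. *Nox4* itself had 85, 48, 35 and 70 counts in control libraries 1 to 4 and 29, 43, 42 and 37 in NOX4-deficient libraries 1 to 4. The ranges overlapped, and the log2 fold change of -0.65 did not pass the test (edgeR adjusted p = 0.207). Over the other settings tried, single libraries left out among them, this log2 fold change ran from -0.82 to -0.36 and passed under none. The counts are per gene and do not show which exons were read. *Ckm*, a muscle marker, was between 8772 and 12410 CPM in control and between 9118 and 11770 CPM in NOX4-deficient libraries. Of 9 skeletal muscle markers tested 0 were called, but not all were steady. *Myh7* ran from 22.7 to 76.25 CPM in control and from 17.6 to 183.8 CPM in NOX4-deficient libraries. CPM are the counts of a gene relative to the library's total, scaled by edgeR's TMM factors. Fold changes are NOX4-deficient over control, and calls required an adjusted p under 0.05 together with an absolute log2 fold change over 0.5.

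Most subunit transcripts had slightly lower estimates in NOX4-deficient muscle, and few passed the test. Of the 34 members, 29 had a negative log2 fold change, against 47.7% of all rows tested. The median was -0.19 over the members and 0.01 over all rows. The call was passed by 2 members, *Psmd11* and *Psma1*, both lower, and by 0 in the other direction. That is 5.88% of the members, beside a background of 3.48% of rows called lower and 2.68% called higher, so that the share called was near the background. At an unadjusted p under 0.05, 14 members (41.2%) were lower and 0 higher, where the whole table had 12.5% lower and 10.7% higher. The 4 NOX4-deficient libraries lay below all 4 control libraries for 7 members (20.6%), beside 8.97% of all rows. No member had the opposite separation, seen for 7.2% of rows. Because the members varied together from library to library, as given below, these counts are not counts of independent genes.

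**Figure D1:**
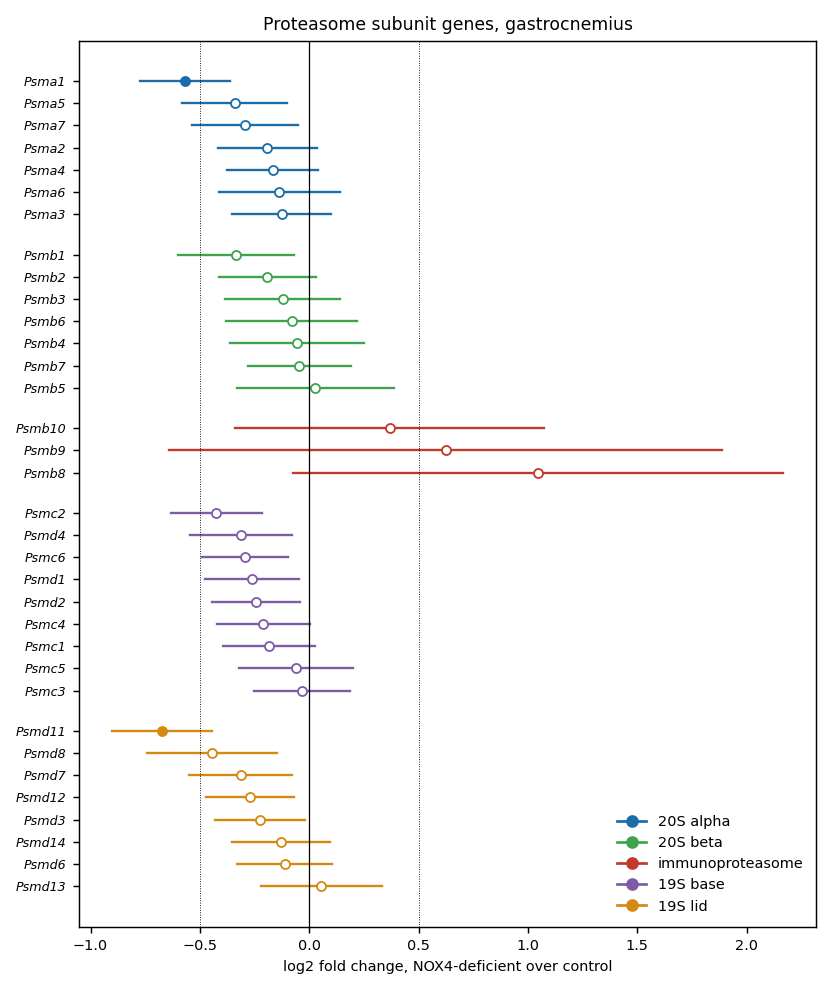
Log2 fold change (NOX4-deficient over control, x axis) of the 34 proteasome subunit genes with 95% confidence intervals from the edgeR fit, grouped by part of the particle; filled points passed the call and dotted lines mark an absolute log2 fold change of 0.5. *Psmd11* (-0.67) and *Psma1* (-0.57) are the only filled points, and all 3 immunoproteasome genes lie to the right of 0 with wide intervals.

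*Psmd11* and *Psma1* carried the largest decreases. *Psmd11* encodes a lid subunit that braces the lid against the base and the core. It had 179.8, 164.5, 189.0 and 219.4 CPM in control libraries 1 to 4 and 112.2, 115.4, 122.3 and 122.4 CPM in NOX4-deficient libraries 1 to 4. The lowest control library was well above the highest NOX4-deficient one, and the NOX4-deficient libraries were close to one another. The transcript fell by 37.3%, a log2 fold change of -0.67 (SE 0.105, 95% confidence interval -0.90 to -0.44, edgeR adjusted p = 0.00311).

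*Psma1*, an alpha ring subunit, had 106.3, 100.8, 103.3 and 110.0 CPM in control and 79.0, 64.1, 69.0 and 71.4 CPM in NOX4-deficient libraries. Again the groups did not overlap. It fell by 32.6%, a log2 fold change of -0.57 (SE 0.095, interval -0.77 to -0.36, edgeR adjusted p = 0.00461). Both calls held without any single library and with each other setting tried, with log2 fold changes from -0.73 to -0.59 for *Psmd11* and from -0.61 to -0.52 for *Psma1*. Neither gene shares exon bases with another gene in the GENCODE annotation of GRCm38, which matters because the libraries were unstranded.

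The sequence upstream of both genes is shown with that of *Psmb5* and *Psmb6*, catalytic subunits whose promoters hold a match to the core of the antioxidant response element, the site bound by NFE2L1 or NFE2L2 with a small MAF. Each run is the 150 bases before the RefSeq transcription start in GRCm38.p6, on the strand of the gene. Capitals mark matches to TGACNNNGC (antioxidant response element core) or CCAAT, on either strand. The regions are chr11:80428465-80428614 (plus strand) for *Psmd11*, chr7:114276117-114276266 (minus) for *Psma1*, chr14:54617996-54618145 (minus) for *Psmb5* and chr11:70525207-70525356 (plus) for *Psmb6*.
Psmd11: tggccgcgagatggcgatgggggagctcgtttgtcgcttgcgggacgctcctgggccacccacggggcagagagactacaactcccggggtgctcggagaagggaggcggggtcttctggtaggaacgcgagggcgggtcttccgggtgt
Psma1: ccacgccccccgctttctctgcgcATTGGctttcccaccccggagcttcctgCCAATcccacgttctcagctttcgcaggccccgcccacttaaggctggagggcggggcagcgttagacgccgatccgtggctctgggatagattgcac
Psmb5: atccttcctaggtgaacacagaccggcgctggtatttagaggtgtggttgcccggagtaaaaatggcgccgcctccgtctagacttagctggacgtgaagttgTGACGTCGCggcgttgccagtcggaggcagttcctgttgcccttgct
Psmb6: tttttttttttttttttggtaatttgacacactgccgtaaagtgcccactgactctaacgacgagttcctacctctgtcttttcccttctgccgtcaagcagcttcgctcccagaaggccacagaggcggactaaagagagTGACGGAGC

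The *Psma1* stretch holds CCAAT letters at -98 and their reverse at -126 from the start, and the *Psmd11* stretch holds neither motif. The antioxidant response element letters begin at -47 in *Psmb5* and at -9 in *Psmb6*. In windows from 250 bases before to 50 after the start, 28 of the 34 members had an entry, with 30 windows in all. The antioxidant response element core was in 4 of the 30 windows (13.3%), those of *Psmb5*, *Psmb6*, *Psmc6* and *Psmd12*, and in 12.4% of 32851 windows of all genes. CCAAT was in 11 of the 30 (36.7%) and in 37.4% of all windows. The shares were thus close to those of all promoters, and neither called gene had the antioxidant response element letters in its window. A match is a run of letters and not a measured site. *Psmb1*, *Psmb2*, *Psmb7*, *Psmc3*, *Psmd3* and *Psmd7* had no entry.

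Within the alpha ring genes, all 7 log2 fold changes were negative, from -0.57 to -0.13 with a median of -0.19. *Psma5*, another alpha ring subunit and the second of this group by p, had 71.0, 58.8, 71.8 and 75.6 CPM in control and 60.7, 49.6, 57.7 and 50.9 CPM in NOX4-deficient libraries. Control library 2 was the low one in its group and fell below NOX4-deficient library 1. The log2 fold change was -0.34 (SE 0.111) and did not pass (edgeR adjusted p = 0.0842). The other 5 genes, *Psma2*, *Psma3*, *Psma4*, *Psma6* and *Psma7*, had overlapping groups and adjusted p-values of 0.134 or more.

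The constitutive beta ring genes lay closest to 0. Of 7, 6 had a negative log2 fold change, the median was -0.08 and 0 were called. *Psmb1*, a structural beta subunit, had the smallest p, with 145.9, 119.4, 136.9 and 143.2 CPM in control and 131.6, 91.8, 110.1 and 98.8 CPM in NOX4-deficient libraries. Only NOX4-deficient library 1 reached into the control range, and the log2 fold change was -0.34 (SE 0.122, edgeR adjusted p = 0.121). *Psmb2*, also structural, had 59.3, 50.7, 58.6 and 53.8 CPM in control and 51.6, 43.3, 52.7 and 47.3 CPM in NOX4-deficient libraries, which overlap (log2 fold change -0.19, SE 0.102, edgeR adjusted p = 0.292).

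The 3 constitutive catalytic genes were near their control levels, with wide limits. *Psmb5* had 75.1, 59.2, 70.3 and 61.7 CPM in control and 78.9, 49.0, 86.1 and 57.5 CPM in NOX4-deficient libraries. NOX4-deficient libraries 1 and 3 were above every control and libraries 2 and 4 below every control, and the log2 fold change was 0.03 (95% confidence interval -0.33 to 0.39). *Psmb6* had 131.8, 107.5, 127.6 and 110.2 CPM in control and 131.1, 87.5, 130.9 and 101.8 CPM in NOX4-deficient libraries, with the same pair of NOX4-deficient libraries high and a log2 fold change of -0.08 (-0.38 to 0.22). *Psmb7* had 150.5, 125.7, 150.7 and 124.9 CPM in control and 147.5, 121.7, 141.0 and 124.3 CPM in NOX4-deficient libraries. In both genotypes its libraries 1 and 3 were high and 2 and 4 low, and the log2 fold change was -0.05 (-0.28 to 0.19). Of the 3 intervals, that of *Psmb6* alone reached the estimate for *Psma5*.

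In the 19S base, all 9 log2 fold changes were negative, from -0.42 to -0.03 with a median of -0.24. *Psmc2*, an ATPase of the base, had 170.1, 149.5, 170.2 and 176.6 CPM in control and 134.2, 117.0, 127.2 and 118.3 CPM in NOX4-deficient libraries. The groups did not overlap. Its log2 fold change of -0.42 (SE 0.096) had an edgeR adjusted p of 0.0197 but missed the fold minimum. With *Psmd11* and *Psma1* it made 3 members (8.82%) that were lower at an adjusted p under 0.05 whatever the fold, beside 4.62% of all rows. That count depended on the fit: it was 8 with DESeq2 (6.76% of all rows) and with pydeseq2 (6.48%), 9 with a term for odd and even libraries (7.28%) and 5 without NOX4-deficient library 1 (2.86%). The adjusted p of *Psmc2* rose to 0.0542, 0.0656 and 0.0529 without control library 1, 3 or 4 and to 0.0607 without NOX4-deficient library 4.

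*Psmc6*, another base ATPase, had 150.8, 140.7, 151.3 and 163.5 CPM in control and 130.8, 123.3, 118.8 and 121.9 CPM in NOX4-deficient libraries. Every NOX4-deficient library was below every control, and the log2 fold change of -0.29 (SE 0.090) had an edgeR adjusted p of 0.0676. The scaffold subunits *Psmd1* and *Psmd2* also had no overlap between groups, with log2 fold changes of -0.26 and -0.24 (edgeR adjusted p = 0.136 and 0.135). *Psmd4*, a ubiquitin receptor, had a log2 fold change of -0.31 (edgeR adjusted p = 0.103) and overlapping groups. The remaining base ATPases, *Psmc1*, *Psmc3*, *Psmc4* and *Psmc5*, lay between -0.21 and -0.03.

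In the lid, 7 of 8 log2 fold changes were negative, with a median of -0.25. *Psmd8*, a lid subunit that joins late in assembly, followed *Psmd11* by p. It had 310.5, 259.5, 333.2 and 384.1 CPM in control and 287.5, 220.3, 225.7 and 211.3 CPM in NOX4-deficient libraries. NOX4-deficient library 1 was above control library 2, and the other libraries were separated. The log2 fold change was -0.45 (SE 0.137, edgeR adjusted p = 0.067), and the gene passed the call without control library 2 (-0.54, edgeR adjusted p = 0.0463) and without NOX4-deficient library 1 (-0.54, edgeR adjusted p = 0.0393).

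*Psmd12*, a structural lid subunit, had no overlap between groups and a log2 fold change of -0.27 (edgeR adjusted p = 0.101). *Psmd7*, the partner of the deubiquitinase subunit, was at -0.31 (edgeR adjusted p = 0.102) and *Psmd14*, the deubiquitinase that removes ubiquitin chains from substrates, at -0.13 (edgeR adjusted p = 0.501). *Psmd13*, a structural lid subunit, was the exception in sign, with 84.4, 66.5, 80.4 and 74.1 CPM in control and 89.4, 63.0, 89.6 and 75.3 CPM in NOX4-deficient libraries. Its ranges overlapped with NOX4-deficient libraries 1 and 3 highest, and the log2 fold change was 0.06 (95% confidence interval -0.22 to 0.33). Its exons share 342 bases with *Sirt3* on the opposite strand, and unstranded reads from the shared bases cannot be told apart.

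**Figure D2:**
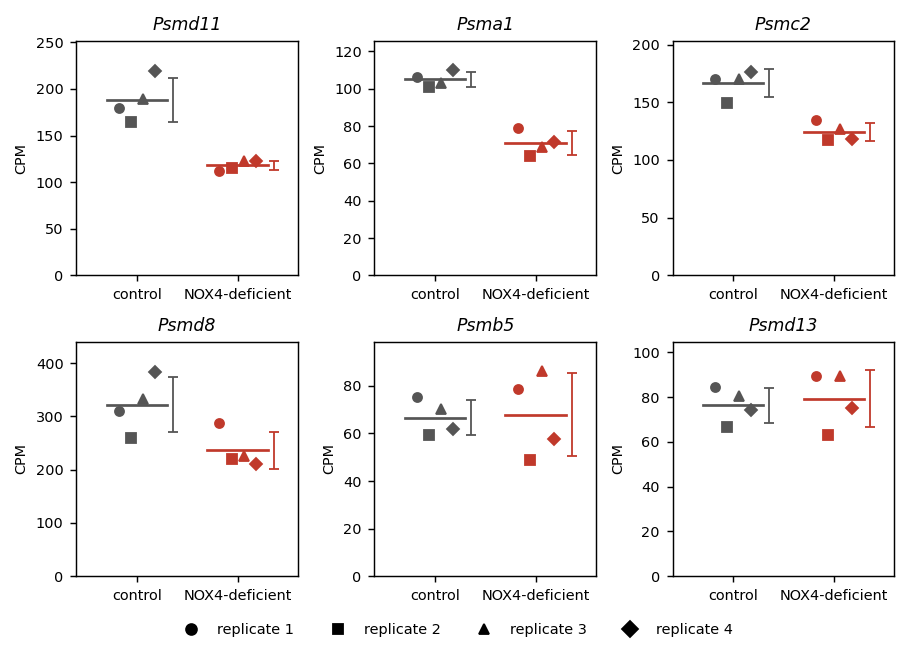
CPM (y axis, from 0) of 6 subunit genes in each library; symbols give the replicate number, horizontal lines the mean and bars the SD over 4 libraries. *Psmd11*, *Psma1* and *Psmc2* are separated between genotypes, and *Psmd8* overlaps through NOX4-deficient library 1. *Psmb5* and *Psmd13* have NOX4-deficient libraries both above and below the control range.

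Averaged over their genes in each library, the parts can be set side by side, as a description without a test. The alpha ring mean was 6.73 ± 0.10 log2 CPM in control and 6.47 ± 0.15 in NOX4-deficient libraries (SD, n = 4 each), a difference of -0.26. For the beta ring it was 6.63 ± 0.13 and 6.50 ± 0.23, a difference of -0.13 that lay within the SD of the NOX4-deficient libraries. The base had 7.54 ± 0.10 and 7.32 ± 0.07, and the lid 7.21 ± 0.13 and 6.95 ± 0.10, with differences of -0.22 and -0.26. Of the 17 genes of the 19S particle 16 had a negative log2 fold change and 6 had no overlap between groups, while of the 14 constitutive 20S genes 13 were negative and 1 had no overlap, beside 8.97% of all rows without overlap in that direction. Whether the parts differ from each other was not tested. Without NOX4-deficient library 2 the beta ring difference shrank to -0.04, and without NOX4-deficient library 4 to -0.07, whereas the alpha ring, base and lid differences stayed between -0.33 and -0.19 whichever library was left out.

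**Figure D3:**
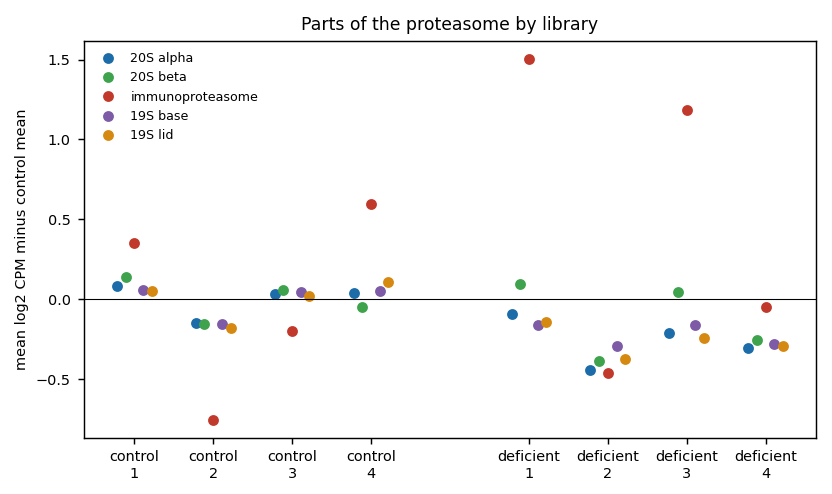
Mean log2 CPM of each part of the proteasome in each of the 8 libraries, minus the mean of the 4 control libraries (y axis, log2 units); each point is the mean over the genes of that part in 1 library. The constitutive parts of the NOX4-deficient libraries sit at or below 0.1, and the immunoproteasome points of NOX4-deficient libraries 1 and 3 stand above all others.

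The immunoproteasome genes were low and variable, and their fold changes, all positive, did not pass. *Psmb8* had 2.40, 1.08, 2.25 and 3.33 CPM in control and 7.75, 1.52, 6.83 and 2.64 CPM in NOX4-deficient libraries, from counts between 21 and 130. NOX4-deficient libraries 1 and 3 were above every control, and libraries 2 and 4 were inside the control range. The log2 fold change was 1.05 (SE 0.504, 95% confidence interval -0.08 to 2.17, edgeR adjusted p = 0.248). *Psmb9* had 1.74, 0.463, 0.909 and 2.55 CPM in control and 3.73, 0.809, 3.15 and 1.05 CPM in NOX4-deficient libraries, from counts between 9 and 62 (log2 fold change 0.62, SE 0.573, edgeR adjusted p = 0.565). *Psmb10* had 6.83, 4.63, 4.17 and 5.77 CPM in control and 11.6, 3.84, 7.93 and 4.28 CPM in NOX4-deficient libraries (log2 fold change 0.37, SE 0.323, edgeR adjusted p = 0.543). The log2 fold changes moved with the setting or the library left out. They ran from 0.71 to 1.34 for *Psmb8*, from 0.26 to 1.09 for *Psmb9* and from 0.017 to 0.57 for *Psmb10*. For *Psmb9* and *Psmb10*, as for *Psmb8*, NOX4-deficient libraries 1 and 3 were the highest of all 8. For *Psmb10*, NOX4-deficient library 2 was below every control. Exons of *Psmb9* share 212 bases with *Tap1* and those of *Psmb8* 498 bases with *Gm20496*, each on the opposite strand. Among the constitutive counterparts, exons of *Psmb7* share 405 bases with *Nek6* on the opposite strand and those of *Psmb5* share 109 bases with *Mir686* on the same strand.

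Set against the constitutive subunit that each replaces, the immunoproteasome transcripts were rare. Per kilobase of transcript, the control mean of *Psmb5* was 53.3-fold that of *Psmb8*, *Psmb6* was 143-fold *Psmb9*, and *Psmb7* was 29.2-fold *Psmb10*. The log2 ratio of counts of *Psmb8* to *Psmb5* was -4.98 ± 0.64 in control and -4.12 ± 0.76 in NOX4-deficient libraries (SD, n = 4 each), a difference of 0.87. For *Psmb9* to *Psmb6* the difference was 0.70 and for *Psmb10* to *Psmb7* 0.29, both smaller than the SD of the 4 control or the 4 NOX4-deficient libraries. Taking only libraries 1 and 3 of each genotype, the differences were 1.47, 1.43 and 0.91, and taking only libraries 2 and 4 they were 0.26, -0.03 and -0.32. Leaving out 1 library, *Psmb8* to *Psmb5* ranged from 0.60 (without control library 2) to 1.17 (without NOX4-deficient library 2), *Psmb9* to *Psmb6* from 0.31 (without control library 2) to 1.11 (without control library 4), and *Psmb10* to *Psmb7* from 0.04 (without NOX4-deficient library 1) to 0.48 (without NOX4-deficient library 2).

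**Figure D4:**
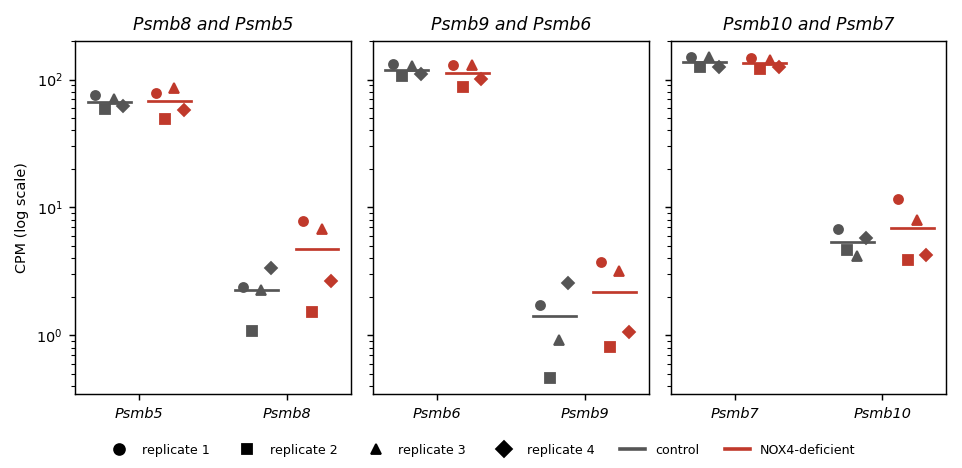
CPM on a log axis of each immunoproteasome gene and the constitutive catalytic gene it replaces, in each library; symbols give the replicate number and horizontal lines the mean of 4 libraries. NOX4-deficient libraries 1 (circles) and 3 (triangles) are the highest of all 8 for *Psmb8*, *Psmb9* and *Psmb10*.

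The summed level of class I antigen processing genes was highest in the same NOX4-deficient libraries. Of 8 tested, 7 had a positive log2 fold change and 0 were called (1 at an unadjusted p under 0.05). Their summed level was 240.4 and 226 CPM in NOX4-deficient libraries 1 and 3, 151.4 and 143.9 CPM in libraries 2 and 4, and 129.2 to 195 CPM in control. *Tap2*, a peptide transporter subunit with the smallest p of the list, had 3.29, 2.83, 3.63 and 5.14 CPM in control and 7.15, 3.74, 9.82 and 3.63 CPM in NOX4-deficient libraries (log2 fold change 0.71, edgeR adjusted p = 0.212). Its log2 fold change ran from 0.38 to 0.90 over the settings tried and the libraries left out. Leukocytes express immunoproteasome genes at high levels. Of the leukocyte markers tested, 7 of 8 had a negative log2 fold change and 0 were called (2 at an unadjusted p under 0.05, both lower). Summed, they were 46.55 to 124 CPM in control and 26.1 to 73.9 CPM in NOX4-deficient libraries, where libraries 1 and 3 had 68.1 and 73.9 CPM and libraries 2 and 4 had 38.25 and 26.1 CPM. The largest terms of these sums were *Cd74* (31.0, 12.9, 38.3 and 8.6 CPM in NOX4-deficient libraries 1 to 4) and *Lyz2* (25.9, 14.8, 21.5 and 8.5). Not every marker had that order. Among NOX4-deficient libraries, *Adgre1* was highest in library 2 (1.72 CPM) and *Cd3e* in library 4 (4.28 CPM). *Ptprc* (CD45) was between 1.85 and 3.35 CPM in control and between 0.586 and 1.73 CPM in NOX4-deficient libraries. Its groups did not overlap (log2 fold change -0.90, edgeR adjusted p = 0.123). The part of leukocyte content in the immunoproteasome values was not tested, and in bulk tissue fewer cells of a type and less RNA per cell cannot be told apart.

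The proteasome genes varied together from library to library around their genotype means. After removing the genotype means, the median Pearson correlation of log2 CPM over the 561 pairs of members was 0.75, against 0.00 over all pairs of tested rows. Single pairs of members ran from -0.71 to 0.996. Both genotypes were pooled, and neither was correlated alone. Within parts the median was 0.88 in the beta ring, 0.85 in the immunoproteasome, 0.84 in the alpha ring, 0.70 in the base and 0.64 in the lid. These correlations rest on 8 libraries that all genes share, and with library size alone for scaling the medians were 0.74 over members and 0.05 over all rows. Of the 34 members, 29 correlated above 0.7 with the mean of the other constitutive members, up to 0.96 for *Psma6*. The exceptions were *Psmd1* (-0.28), *Psmd11* (0.29), *Psmd14* (0.41), *Psmc6* (0.54) and *Psmd2* (0.57), so that the lowest in the lid was also the gene with the smallest p between genotypes.

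The members also differed between odd- and even-numbered libraries. In NOX4-deficient libraries 31 of 34 members were higher in the pair 1 and 3 than in the pair 2 and 4, by a median of 0.23 on the log2 scale, and in control 30 members were, by 0.11. Over all rows tested, 49.3% were higher in NOX4-deficient libraries 1 and 3 than in 2 and 4, with a median difference of -0.0074. The rows as a whole thus had no shift in 1 direction, although the same libraries were separated. The second principal component of all rows tested, with 19% of the variance, put NOX4-deficient libraries 1 and 3 (18.5 and 17.0) apart from 2 and 4 (-26.3 and -25.0), and control libraries 1 and 3 (21.0 and 4.21) above 2 and 4 (-5.92 and -3.55). The labels place all libraries in 1 batch and give no meaning to the numbers. Between genotypes, 25 members were lower within libraries 1 and 3 (median -0.17) and 33 within libraries 2 and 4 (median -0.23). The alpha ring, base and lid means were lower in NOX4-deficient muscle within both pairs, by -0.21, -0.21 and -0.23 in libraries 1 and 3 and by -0.32, -0.24 and -0.30 in libraries 2 and 4. For the beta ring the values were -0.03 and -0.22, and for the immunoproteasome 1.27 and -0.18.

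Levels were compared between genes after division by transcript length. In control muscle the constitutive alpha ring genes lay between 30.7 (*Psma2*) and 123 CPM per kilobase (*Psma6*), and the beta ring genes between 64.7 (*Psmb2*) and 149.5 (*Psmb6*). In the base, 8 of 9 genes with a length lay between 62.2 (*Psmc4*) and 145.4 (*Psmc3*), and in the lid, 7 of 8 lay between 38.4 (*Psmd13*) and 145.2 (*Psmd7*). *Psmd11* was at 66.1 and *Psma1* at 87.5 CPM per kilobase in control. The immunoproteasome genes were between 1.05 (*Psmb9*) and 4.08 (*Psmb10*).

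Genes that build, activate, feed and regulate the proteasome were examined as a list of 56, of which 52 were tested. Of these 7 were called lower and 0 higher (2 were higher at an unadjusted p under 0.05), 13 had no overlap between groups with NOX4-deficient lower, and the median was -0.04. Over all rows, 3.48% were called lower and 8.97% had no overlap in that direction, and the list was chosen with earlier results of these data known. The 7 fell in 3 groups: factors that bind the proteasome, shuttle factors and transcriptional regulators.

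**Figure D5:**
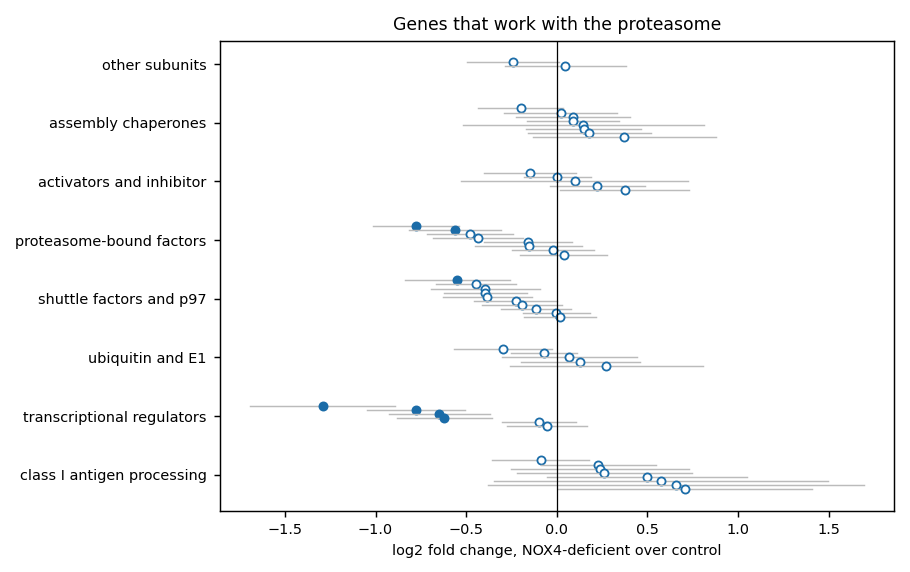
Log2 fold change (NOX4-deficient over control, x axis) with 95% confidence intervals from the edgeR fit for the 52 tested genes that work with the proteasome, by group; filled points passed the call. The 7 filled points are all left of 0, and 4 of them are transcriptional regulators.

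Assembly chaperones, which help build the particle, lay mostly above 0. Of 8 tested, 7 had a positive log2 fold change, with a median of 0.12, and 0 were called (0 also at an unadjusted p under 0.05). *Psmd5*, a chaperone of base assembly, had the smallest p, with 23.1, 22.6, 22.7 and 26.2 CPM in control and 19.9, 20.9, 18.8 and 22.8 CPM in NOX4-deficient libraries (log2 fold change -0.20, edgeR adjusted p = 0.301). Among 5 activators and inhibitors 0 were called, and *Psme1*, a subunit of the interferon-inducible 11S activator, had 27.3, 21.2, 21.9 and 19.4 CPM in control and 36.8, 21.9, 31.5 and 26.1 CPM in NOX4-deficient libraries (log2 fold change 0.37, edgeR adjusted p = 0.192). Here too NOX4-deficient libraries 1 and 3 were the highest of all 8. Of the further 19S subunits, *Adrm1*, a ubiquitin receptor, had 107.4, 87.4, 105.4 and 114.2 CPM in control and 91.6, 75.5, 99.6 and 83.9 CPM in NOX4-deficient libraries, which overlap (log2 fold change -0.24, edgeR adjusted p = 0.237).

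Among 8 proteasome-bound factors, 2 were called lower. *Zfand5*, a zinc finger protein that binds the 26S proteasome and stimulates degradation, had 800.0, 695.0, 778.9 and 940.5 CPM in control and 449.9, 487.3, 476.7 and 462.5 CPM in NOX4-deficient libraries. The genotypes were far apart, and the log2 fold change was -0.78 (SE 0.109, edgeR adjusted p = 0.00168). *Akirin2*, which carries proteasomes into the nucleus, had 46.0, 39.6, 41.6 and 52.2 CPM in control and 31.1, 26.4, 32.7 and 31.4 CPM in NOX4-deficient libraries without overlap (log2 fold change -0.56, SE 0.116, edgeR adjusted p = 0.0141). Its log2 fold change missed the minimum without control library 4 (-0.48) and, narrowly, without NOX4-deficient library 2.

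Of 10 shuttle factors and p97 components, which bring ubiquitinated proteins to the proteasome, 9 had a negative log2 fold change and 1 was called. *Ddi2*, a shuttle protein and the protease that activates NFE2L1, had 103.4, 102.6, 108.8 and 124.8 CPM in control and 61.4, 88.0, 64.8 and 86.2 CPM in NOX4-deficient libraries. There was no overlap, with NOX4-deficient libraries 1 and 3 lowest, and the log2 fold change was -0.55 (SE 0.133, edgeR adjusted p = 0.0265). The call was lost without control library 3 or 4 or NOX4-deficient library 1 or 3 (edgeR adjusted p = 0.0643, 0.0757, 0.0637 and 0.0775). *Rad23b*, a shuttle with ubiquitin-like and ubiquitin-binding domains, had 202.5, 199.5, 192.3 and 246.3 CPM in control and 155.4, 160.1, 144.7 and 156.8 CPM in NOX4-deficient libraries (log2 fold change -0.45, edgeR adjusted p = 0.0216), also without overlap but under the fold minimum. In the ubiquitin and E1 group 0 of 5 were called (1 was lower at an unadjusted p under 0.05). That gene, the polyubiquitin gene *Ubb*, had 569.8, 436.6, 575.2 and 615.9 CPM in control and 501.6, 420.0, 468.1 and 400.4 CPM in NOX4-deficient libraries, which overlap through control library 2 (log2 fold change -0.30, SE 0.125, edgeR adjusted p = 0.178).

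Of the regulators of proteasome genes, 4 of 6 tested were called lower, beside 3.48% of all rows, in a list chosen with results known. *Nfe2l2*, the oxidant-responsive activator, had 69.5, 70.4, 71.4 and 69.8 CPM in control and 44.9, 52.6, 33.5 and 48.4 CPM in NOX4-deficient libraries. Its control libraries were nearly equal and all above the NOX4-deficient ones (log2 fold change -0.65, SE 0.128, edgeR adjusted p = 0.0112). *Nfe2l1*, which drives subunit genes when proteasome activity is short, had 856.7, 886.4, 939.3 and 912.0 CPM in control and 867.0, 922.7, 748.6 and 924.4 CPM in NOX4-deficient libraries, with a log2 fold change of -0.05 (95% confidence interval -0.28 to 0.17).

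The small MAF proteins pair with either factor, and all 3 genes were lower. *Maff* had 6.41, 6.58, 5.29 and 5.61 CPM in control and 3.06, 2.12, 2.47 and 2.11 CPM in NOX4-deficient libraries (log2 fold change -1.29, SE 0.184, edgeR adjusted p = 0.00185). *Mafk* had 41.3, 38.6, 32.2 and 43.2 CPM in control and 24.0, 24.3, 19.1 and 23.3 CPM in NOX4-deficient libraries (log2 fold change -0.78, SE 0.124, edgeR adjusted p = 0.00346). *Mafg* had 115.2, 121.8, 116.9 and 148.4 CPM in control and 70.9, 83.1, 95.8 and 77.2 CPM in NOX4-deficient libraries (log2 fold change -0.62, SE 0.120, edgeR adjusted p = 0.0104). None of the 3 had overlapping groups. *Nfe2l2* and the small MAF genes kept their calls without any single library, as did *Zfand5*.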

How the data were processed

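Poly(A) RNA was sequenced as unstranded 2x150 paired-end libraries. The authors processed reads with the nf-core RNA-seq pipeline and deposited raw counts per gene, without normalization. The submitters' processing notes name STAR and GRCm39, and the annotation and counter settings are not given in the sources used here. From the counts, TMM scaling, filterByExpr, a robust glmQLFit and glmQLFTest (edgeR 4.0.16, R 4.3.3) were run on all 12725 rows that passed, with genotype as the only term and Benjamini-Hochberg adjustment. Thresholds were those of the study's methods. Errors are SDs over 4 mice, and intervals are 95%. DESeq2 1.42.0 and pydeseq2 0.5.4 (the study's tool, in a later version) were alternatives. All 8 columns matched a sample. Members and lists were chosen with earlier results of these data known. Values in every library are given for called genes, the 2 smallest p-values in each part, the catalytic and immunoproteasome genes, members above 0, and the called and smallest-p genes of each further list, while other genes named were chosen after their values were seen. Transcript lengths and exon overlaps came from GENCODE M21 and promoters from RefSeq, both on GRCm38, since no GRCm39 reference was used here. Items withheld from the text are not reported here, and counts over lists leave them out.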

Additional observations from a re-analysis of the deposited data

Results flagged for a closer look

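In 114 groups of 4 libraries examined, 4 held 1 library far from the other 3, by a gap divided by the range of the group above Dixon's critical value at the 95% level. Chance flags about 1 in 20 groups, which is 5.7 of 114. Control library 2 was the lowest for *Psmd4* (ratio 0.928) and for the mean of the 19S base genes (0.932). *Psmd5* was highest in control library 4 (0.852). *Nox4* was lowest in NOX4-deficient library 1 (0.918). Without control library 2 the base difference was -0.28, beside -0.22 with all libraries.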

How the results depend on the processing

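*Psma1* and *Psmd11* were called under every alternative, and 0 members were called higher. Members lower at an adjusted p under 0.05 whatever the fold numbered 8 with DESeq2 in R (6.76% of all rows) and 8 with pydeseq2 (6.48%), beside 3 with edgeR, and the cause was not tested. Adding odd against even replicate number to the model, a choice made after seeing the data, gave 9 (7.28% of all rows). With single libraries left out the count ran from 2 to 5, the highest without NOX4-deficient replicate 1, and that of called genes that work with the proteasome from 5 (without control replicate 4) to 9. With no fold minimum the latter was 11, beside 7. Of 577 member values under alternatives, 559 kept sign and side of the threshold, 3 gained a call and 15 changed sign, all of the latter at an absolute log2 fold change under 0.1. With libraries left out, *Psmb4* ran from -0.13 to 0.045, *Psmb5* from -0.095 to 0.16, *Psmb6* from -0.15 to 0.024, *Psmb7* from -0.092 to 0.014, *Psmc3* from -0.071 to 0.022, *Psmc5* from -0.12 to 0.014 and *Psmd13* from -0.0065 to 0.15. The difference between genotypes in the log2 ratio of *Psmb10* to *Psmb7* was 0.91 in odd and -0.32 in even libraries. Replicate numbers did not clearly pair the libraries. After removing the genotype means, correlations between genotypes were 0.22, 0.15, 0.04 and 0.04 for the same number. All pairs of odd with odd or even with even numbers were positive, up to 0.19 for different numbers. Pairs of odd with even numbers reached -0.21. With the replicate number as a block, 2 members were called, the same genes, and *Psmb5* was at -0.0013. Over all rows the block gave 543 lower and 390 higher calls, beside 443 and 341. Precision was limited by 4 libraries a group: SEs of the 31 constitutive members ran from 0.090 to 0.165.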
